A study of Saccharomyces cerevisiae with 4 samples.

Results

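The genes described here encode the proteins of the large subunit of the cytosolic ribosome of budding yeast, Saccharomyces cerevisiae. They were chosen by standard gene name alone: RPL followed by a number, with or without the letter A or B, together with RPP0, RPP1A, RPP1B, RPP2A and RPP2B. The slides held 81 such genes among 6388 gene probes, and every gene of the list has 3 spots per slide. Of these, 70 form 35 pairs of A and B copies, and 11 are single-copy genes.

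Messenger RNA was compared on 4 two-colour oligonucleotide slides after 45 min in 0.6 mol/L NaCl. BF2B is written bdf1∆bdf2∆ with the constructs [BDF2 L] and [pYX242], BF2S is written bdf1∆bdf2∆ with [BDF2 L] and [SIR2 H], and BF2 is written bdf1∆ with [pYX242] and [pRS316]. By these labels all 3 strains lack BDF1 and were salt-treated, and no group is labelled as having an intact BDF1 or as untreated. On the BF2S slides BDF1 was called higher, as given below, which is at odds with this label. Blank spots on those slides were also bright, so the call does not settle whether BDF1 was present. The products of BDF1 and BDF2 recognise acetylated histones through their bromodomains, and that of SIR2 removes acetyl groups from histones. The labels do not explain the letters L and H. BF2B was set against BF2 on 2 slides and the sample labelled BF2S against BF2 on the other 2. On slide 1 of each comparison the strain was labelled with Cy5 and BF2 with Cy3, and on slide 2 the dyes were exchanged. Both slides carry the same pair of strains, so they count as 1 replicate. No test was possible, and every SD below is the spread between 2 hybridisations.

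In yeast, most large-subunit proteins are encoded by a pair of nearly identical genes left by the ancient duplication of the genome. Their transcripts are among the most abundant in growing cells, and they are transcribed together under the control of Rap1, Fhl1 and Ifh1. Their transcripts are known to fall for a time after many kinds of stress, salt included. The proteins surround the catalytic core of ribosomal RNA, line the tunnel through which the new peptide leaves, and form the stalk that recruits elongation factors.

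In the values below, a signal is the mean brightness of the 3 spots of a gene above local background, in scanner units, and a log2 ratio is strain over BF2 after background correction and loess within the slide. A call required more than 2-fold, higher on each slide or lower on each slide. It also required the gene to be above background, with at least 2 of 3 spots over the local background mean plus 2 SD, in at least 1 channel on both slides. All 81 genes met this background criterion in both comparisons, and none had a spot at the scanner limit.

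The manipulated genes can be set beside the labels. On the BF2B slides BDF1 was not above background, BDF2 had a log2 ratio of 1.61 ± 0.03, and the plasmid markers LEU2 and URA3 stood at -2.47 ± 0.20 and -1.12 ± 0.08. LEU2 was thus far lower in BF2B, although BF2B and BF2 are both written with [pYX242]. Which construct carries which marker is not given here, so the marker values do not settle the labels. On the BF2S slides BDF1, which all strains lack by their labels, stood at 1.64 ± 0.28 and was called higher, and SIR2 stood at 1.51 ± 0.18. There BDF2 was not called, at 0.65 ± 0.61, although both BF2B and BF2S carry [BDF2 L], while LEU2 stood at -1.33 ± 0.43 and URA3 at -0.20 ± 0.35. Blank spots on the BF2S slides were bright, with a median signal of 6049 and 5325 in the BF2S channel and of 1709 and 1768 in the BF2 channel. On the BF2B slides their medians lay between 29 and 110 in all channels.

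In BF2B against BF2, the large-subunit genes as a group lay slightly low, and 1 of the 81 was called. That gene, RPL29, was lower in BF2B. None was higher, and 80 were not called. Over all 4660 gene probes above background, 1.37% were called higher and 1.61% lower, so 1 of 81, or 1.23%, is close to the background share. The median log2 ratio of the 81 genes was -0.17, from -0.19 on slide 1 and -0.16 on slide 2, beside -0.01 over all genes. The quartiles were -0.27 and -0.08, the whole range ran from -1.25 to 0.22, and 77 genes were within 0.5 of 0.

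The shift was spread over many genes of the group, and genes of the other ribosomal subunit lay about as low. Of the 81 genes, 51 were below 0 on both slides, 3 were above 0 on both, and 27 had opposite signs. The share below 0 on both slides was 63% in the large-subunit genes and 32% over all genes. The large-subunit genes were brighter, with a median BF2B signal of 6143 on slide 1 against 545 over all gene spots. The share among genes of like brightness was not counted. The 57 small-subunit genes had a median of -0.16, a range from -0.45 to 0.15, and 0 called in either direction. A single gene's ratio was less repeatable than the median: the SD between slides had a median of 0.14, and the correlation of the slides over the 81 genes was 0.37, a description across genes that share both slides. In bulk RNA, a change in the makeup of the cells and a change of RNA per cell cannot be told apart.

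**Figure D1:**
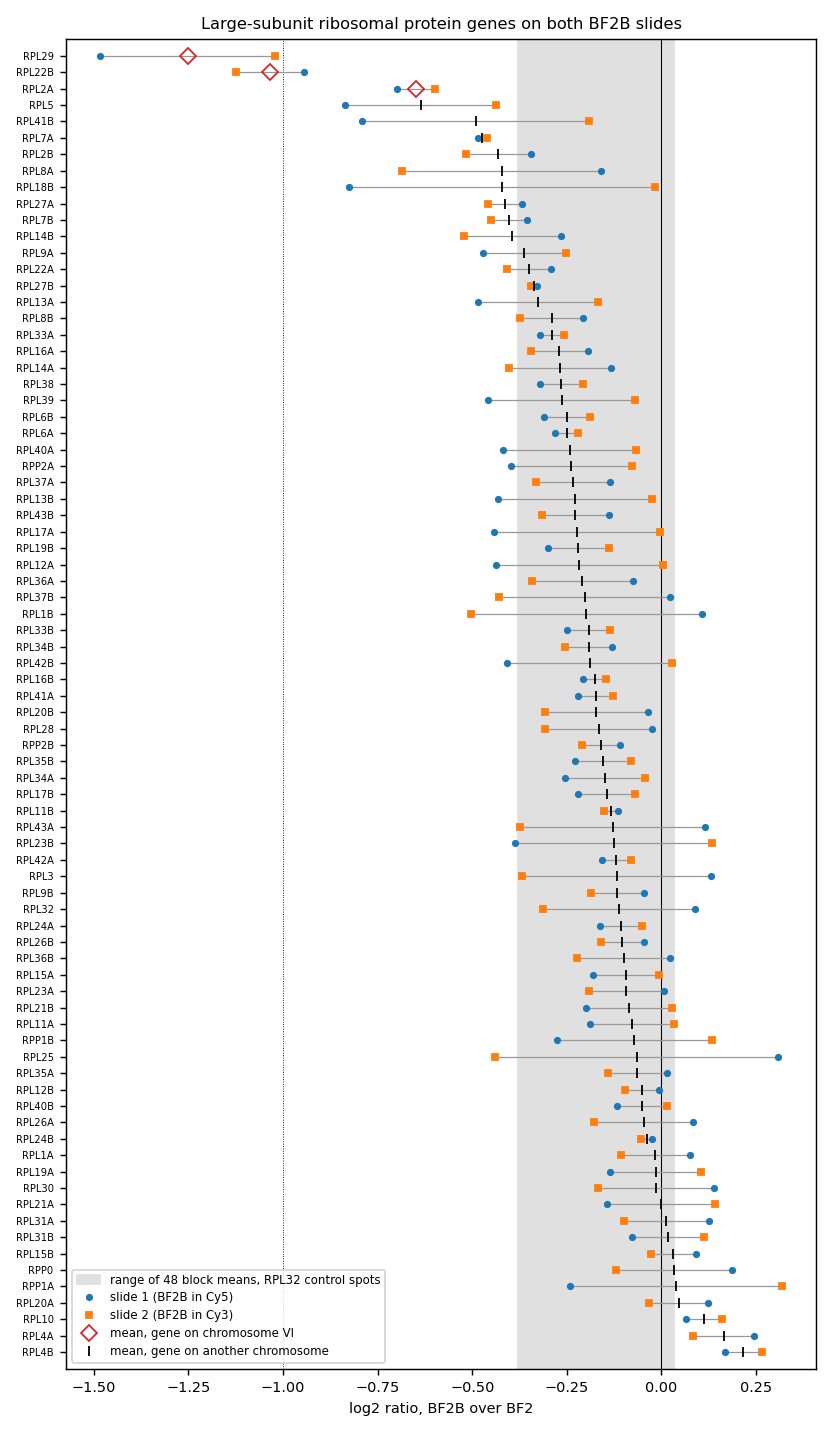
Log2 ratio of BF2B over BF2 for 80 of the 81 large-subunit genes on slide 1 (circles) and slide 2 (squares), ordered by the mean of both slides. Diamonds mark the means of the genes on chromosome VI and short bars those of the others, the grey band is the range of 48 block means of RPL32 control spots, and the dotted line is 2-fold lower. RPL29, RPL22B and RPL2A have the 3 lowest means, and most genes lie within 0.5 of 0.

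RPL29 encodes a small protein that is dispensable for growth and aids the joining of the subunits. On slide 1 its signal was 1185 in BF2B and 3480 in BF2, and on slide 2 it was 1477 in BF2B and 3645 in BF2. The BF2B signal was under the BF2 signal on both slides. The median signal of the large-subunit genes was also lower in BF2B, at 6143 against 6704 on slide 1 and 6411 against 8690 on slide 2. A lower BF2B signal before normalization therefore does not set a gene apart. The log2 ratios were -1.48 and -1.02, a mean of -1.25 ± 0.33, or 2.38-fold lower in BF2B. The call ended without background subtraction and at a threshold of 3-fold.

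RPL22B came next. It encodes the minor copy of Rpl22, another protein that cells can lack. Its signal on slide 1 was 454 in BF2B and 899 in BF2. On slide 2 it was 370 in BF2B, not above background, and 1197 in BF2. The log2 ratios were -0.94 and -1.12, a mean of -1.03 ± 0.13. The mean passed 2-fold, but slide 1 alone did not, so RPL22B was not called.

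RPL2A encodes a protein next to the peptidyl transferase centre, where peptide bonds form. Its signals were 4788 on slide 1 and 4964 on slide 2 in BF2B, against 7562 and 9105 in BF2. The log2 ratios were -0.70 and -0.60, a mean of -0.65 ± 0.07. Both slides gave the same direction and nearly the same size, short of the 2-fold threshold.

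RPL29 (YFR032C-A), RPL22B (YFL034C-A) and RPL2A (YFR031C-A) are the only large-subunit genes on chromosome VI by their systematic names, and they had the 3 lowest means of the 81. The 87 genes of chromosome VI above background had a median log2 ratio of -0.75, and it was also -0.75 without these 3. The medians on the 2 slides were -0.69 and -0.78, and 72 of the 87 genes were below 0 on both. Of these 87 genes, 16 were called lower, or 18.4%, against 1.61% of all genes. The medians of the other chromosomes lay between -0.08 and 0.48, with the highest on chromosome I, which holds no large-subunit gene.

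Set against the median of the other genes of their chromosome, RPL2A differed by 0.10 in log2, RPL22B by -0.29 and RPL29 by -0.50. On chromosome VI, 51 genes had a lower mean than RPL2A, 21 a lower mean than RPL22B and 6 a lower mean than RPL29. The spots of chromosome VI genes lay in 24 blocks of the slide, dim spots included, and their block medians were below 0 in all 24, from -0.98 to -0.25. The 3 genes themselves lie in 3 different blocks. In the spots of all other chromosomes the 48 block medians ran from -0.10 to 0.09. The part of the chromosome-wide shift in the ratios of the 3 genes was not tested.

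Without the 3 genes of chromosome VI, the remaining 78 large-subunit genes had a median of -0.17 and 0 calls in either direction. The median of the group was as low without them, while its single call lies among them. The lowest value off chromosome VI was that of RPL5.

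**Figure D2:**
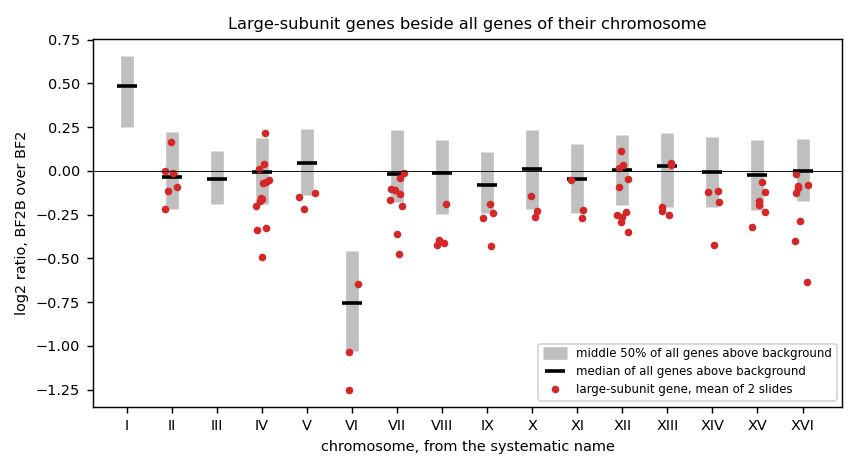
Log2 ratio of BF2B over BF2 by chromosome, taken from the systematic names. Grey bars span the middle 50% and black lines mark the median of all genes above background, and points are large-subunit genes (mean of 2 slides). Chromosome VI has a median of -0.75 and holds the 3 lowest large-subunit genes, while the other chromosomes have medians between -0.08 and 0.48.

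Genes for proteins that bind the 5S ribosomal RNA differed in size of shift. RPL5, which encodes its main binding partner, had signals of 13798 on slide 1 and 13556 on slide 2 in BF2B, against 20309 and 22388 in BF2. The log2 ratios were -0.84 and -0.44, a mean of -0.64 ± 0.28. Its BF2B signals were below its BF2 signals on both slides, as was the median signal of the large-subunit genes, and it was not called. RPL11A and RPL11B, whose protein enters the ribosome with Rpl5, stood at -0.08 and -0.13, and neither was called.

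Among genes for proteins of the catalytic core and its surroundings, values lay on both sides of 0. RPL4A and RPL4B encode a protein with a long loop that reaches into the exit tunnel, and they had the highest means of all 81. RPL4B had log2 ratios of 0.17 and 0.26, a mean of 0.22 ± 0.07, with signals of 9678 and 9683 in BF2B and of 7898 and 9801 in BF2. RPL4A had log2 ratios of 0.24 and 0.08, a mean of 0.16 ± 0.11, with signals of 8873 and 9442 in BF2B and of 6981 and 10860 in BF2. For both copies the BF2B signal was above the BF2 signal on slide 1 and below it on slide 2, so the sign on slide 2 appears only once the slide is normalized. With median centring in place of loess the means were 0.22 for RPL4B and 0.15 for RPL4A.

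RPL10, for a protein that joins the subunit late, in the cytoplasm, had log2 ratios of 0.06 and 0.16 and a mean of 0.11 ± 0.07. Its signals were 6221 and 9614 in BF2B, against 5715 and 10453 in BF2. RPL4A, RPL4B and RPL10 were the only 3 genes above 0 on both slides. RPL3, whose protein also reaches toward the catalytic centre, had 0.13 on slide 1 and -0.37 on slide 2, so its sign was not settled.

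RPL7A, for an early-assembling protein that binds ribosomal RNA, had closely repeated ratios. Its signals were 2499 and 2552 in BF2B, against 3511 and 4134 in BF2. Its log2 ratios of -0.49 and -0.46 gave a mean of -0.47 ± 0.02. Its other copy, RPL7B, stood at -0.40 ± 0.07. RPL27A and RPL27B repeated as closely, at -0.41 ± 0.06 and -0.34 ± 0.01. None of these 4 genes was called.

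RPL8A, a gene for a protein needed for processing of the ribosomal RNA precursor, was less certain. Its log2 ratios were -0.16 and -0.69, a mean of -0.42 ± 0.37, with signals of 3074 and 2852 in BF2B and of 3399 and 5452 in BF2. RPL2B, the other copy of RPL2A, lies on chromosome IX. It had log2 ratios of -0.34 and -0.52, a mean of -0.43 ± 0.12, with signals of 5460 and 4428 in BF2B and of 6704 and 7604 in BF2. RPL8A was clearly below 0 on slide 2 only, and RPL2B on both slides. RPL18B showed the widest gap between slides of the 81, with -0.83 on slide 1 and -0.02 on slide 2.

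The 12 genes for proteins around the exit of the peptide tunnel, where chaperones and the signal recognition particle dock, had a median of -0.08 and 0 called. RPL39, whose protein lines the tunnel, was the lowest of them at -0.26 ± 0.27, followed by RPL17A at -0.22 ± 0.31. In both, slide 1 gave the larger difference from 0. RPL25, whose protein is the docking site at the exit, had 0.31 on slide 1 and -0.44 on slide 2. RPL31A and RPL31B lay at 0.01 and 0.02, with opposite signs on the slides.

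The stalk genes lay close to 0, with a median of -0.07 over 5 genes and 0 called. RPP0, the base of the stalk, had log2 ratios of 0.19 and -0.12, with signals of 6161 and 5343 in BF2B and of 5204 and 6927 in BF2. RPP1A, one of the acidic proteins that hang from it, had log2 ratios of -0.24 and 0.32, with signals of 3649 and 4694 in BF2B and of 4266 and 4388 in BF2. Both had opposite signs on the slides. So did RPL15B, also among the highest 8, with log2 ratios of 0.09 and -0.03 and signals of 8000 and 8586 in BF2B and of 7055 and 10679 in BF2. The means of RPP1B, RPP2A and RPP2B, the other acidic proteins, were -0.07 ± 0.29, -0.24 ± 0.22 and -0.16 ± 0.07.

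RPP1B signals were 2953 and 3959 in BF2B, against 3560 and 4192 in BF2. Those of RPP2A were 2450 and 2349 in BF2B, against 3224 and 2871 in BF2. Those of RPP2B were 8217 and 8441 in BF2B, against 8243 and 11927 in BF2. Each of these 3 genes had the lower signal in BF2B on both slides before normalization, with RPP2B nearly level on slide 1. On slide 2 the median signal of the 81 genes was itself lower in BF2B, at 6411 against 8690 in BF2. After normalization RPP1B stood at 0.13 on that slide, so its direction was not settled.

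A list of genes for proteins that cells can do without held 11 genes, those of RPL12, RPL22, RPL24, RPL29, RPL38, RPL39 and RPL41. The list does not hold every such gene, so its median describes these 11 only and depends on which were listed. Their median was -0.26, lower than that of all 81 genes, with RPL29 called and 10 not called. They hold 2 of the 3 genes of chromosome VI, so this list and that chromosome are not separate. RPL41B, for the shortest protein of the ribosome, had log2 ratios of -0.79 and -0.19, a mean of -0.49 ± 0.42, with signals of 1261 and 1849 in BF2B and of 2227 and 2453 in BF2. RPL38 stood at -0.26 ± 0.08. The single-copy genes had a median of -0.12 over 11 genes, with RPL29 called. RPL40A and RPL40B, whose proteins are made as fusions with ubiquitin, stood at -0.24 ± 0.25 and -0.05 ± 0.09.

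The A and B copies of a protein were compared on the BF2B slides by subtracting the log2 ratio of the B copy from that of the A copy on each slide. A pair was called apart when the difference was more than 1.5-fold on each slide with the same sign. This was met by 1 of 35 pairs, or 2.86%, and by 0 of 24 small-subunit pairs, or 0%. The median absolute difference between the copies was 0.10 in log2, against a median SD between slides of 0.18, so the typical difference between copies was below the technical spread. It was 0.05 over the small-subunit pairs. In 33 pairs the mean difference was under 0.25. The sign was the same on both slides in 15 pairs, with the A copy higher in 7 and lower in 8, and differed in the other 20.

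RPL22 was the pair apart. RPL22A, the main copy, lies on chromosome XII and had log2 ratios of -0.29 and -0.41, a mean of -0.35 ± 0.08, with signals of 7005 and 7377 in BF2B and of 8098 and 11981 in BF2. RPL22B, on chromosome VI, stood at -1.03 ± 0.13 with the signals given above. The A minus B difference was 0.65 on slide 1 and 0.72 on slide 2, a mean of 0.68 ± 0.05, or 1.61-fold. The value of slide 2 rests on a BF2B signal of RPL22B that was not above background, so slide 1 alone measured both copies in both strains. Both copies were dimmer in BF2B on both slides, the B copy by the larger factor. The median signal of the large-subunit genes was lower in BF2B on both slides too. The other genes of chromosome VI had a median of -0.75, and RPL22B differed from that median by -0.29. Chromosome XII had a median of 0.005, beside -0.35 for RPL22A. The part of the chromosome VI shift in the difference between the copies was not tested. The call ended without background subtraction, where the mean difference was 0.48, and, with smaller shifts, under median centring at 0.67 and with marked spots left out at 0.60. It also ended at 2-fold, and with both channels required above background, which removes RPL22B.

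RPL2, the other pair with a copy on chromosome VI, was not apart. Its A copy on that chromosome and its B copy on chromosome IX differed by -0.35 on slide 1 and -0.08 on slide 2, a mean of -0.22 ± 0.19. The RPL41 pair differed by 0.57 and 0.06, a mean of 0.32 ± 0.36, with RPL41A signals of 6206 and 9242 in BF2B and of 6936 and 12324 in BF2. In both pairs the difference on slide 1 was several times that on slide 2, and the SD was close to the mean or above it.

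The RPL9 pair differed by -0.43 and -0.07, a mean of -0.25 ± 0.25. RPL9A had signals of 6289 and 7513 in BF2B and of 8295 and 10936 in BF2, and RPL9B of 1949 and 2291 in BF2B and of 1970 and 3033 in BF2. The RPL20 pair differed by 0.16 and 0.28, a mean of 0.22 ± 0.08. RPL20A had signals of 9578 and 10751 in BF2B and of 8053 and 13428 in BF2, and RPL20B of 6057 and 5708 in BF2B and of 5970 and 8536 in BF2. The RPL20 difference was small but above its spread, and so was that of the RPL19 pair, with 0.16 and 0.24 and a mean of 0.20 ± 0.06. Several other pairs also had a mean difference above their spread, so this does not set RPL20 or RPL19 apart.

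At the other end, the copies of RPL6, RPL31 and RPL37 had the closest means. RPL6A and RPL6B both stood at -0.25, with differences of 0.03 and -0.03 on the slides. RPL6A had signals of 4218 and 6211 in BF2B and of 5030 and 8748 in BF2, and RPL6B of 4285 and 5076 in BF2B and of 5225 and 6910 in BF2. Each copy was dimmer in BF2B on both slides, as was the median of the large-subunit genes.

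The closeness of the RPL31 and RPL37 copies came from slides that cancelled. The RPL31 copies differed by 0.20 on slide 1 and -0.21 on slide 2, and the RPL37 copies by -0.16 and 0.10. RPL31A had signals of 8019 and 8392 in BF2B and of 6906 and 10972 in BF2, and RPL31B of 1662 and 2506 in BF2B and of 1722 and 2656 in BF2. RPL37A had signals of 2819 and 2721 in BF2B and of 3067 and 4011 in BF2, and RPL37B of 3402 and 3350 in BF2B and of 3303 and 5324 in BF2.

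Over the 35 pairs, the means of the A and B copies had a Pearson correlation of 0.58, and of 0.66 without RPL22. This is a description across pairs that share both slides. The coding sequences of most pairs are nearly identical, and the probe sequences were not used here, so how far a probe also binds the transcript of the other copy was not tested. Counts of copies that moved alike are therefore uncertain.

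**Figure D3:**
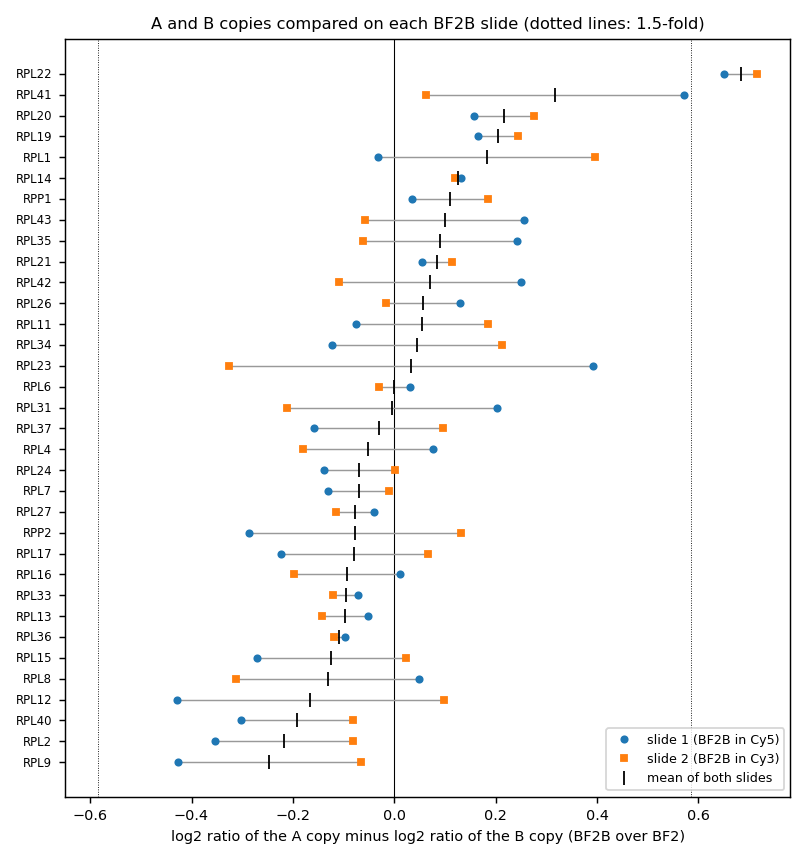
Log2 ratio (BF2B over BF2) of the A copy minus that of the B copy for 34 of the 35 pairs, on slide 1 (circles) and slide 2 (squares), with the mean of both as a short bar. Dotted lines mark 1.5-fold. RPL22 is beyond the line on both slides, with 0.65 and 0.72, and no other pair drawn is.

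A control named RPL32 gave a direct view of the spread within a slide. It was spotted 3 times in each of 48 blocks, or 144 spots per slide. Whether it carries the same oligonucleotide as the RPL32 gene probe is not stated. On the BF2B slides the control had a mean log2 ratio of -0.16 on slide 1 and -0.17 on slide 2. Within a block the SD had a median of 0.05 on each slide, while the block means had an SD of 0.20 on slide 1 and 0.17 on slide 2. The control thus differed more between blocks than between its spots within a block.

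The block means ran from -0.59 to 0.23 on slide 1 and from -0.56 to 0.13 on slide 2. Averaged over both slides they ran from -0.38 to 0.03, with a mean of -0.17 ± 0.09 (SD over blocks), and 47 of 48 were below 0. The correlation between slides over the 48 blocks was -0.54, a description, so opposite deviations partly cancelled in the mean of a dye swap. The RPL32 gene probe had 0.09 on slide 1 and -0.31 on slide 2, within the range of the control on each. On the BF2S slides the gene probe had 0.06 and 0.95, above the highest control block of each, -0.04 and 0.62.

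The range of the control over the slide can be set beside the genes. Of the 81 genes, 18 had means outside it. Below the range lay 12 genes: RPL29, RPL22B, RPL2A, RPL5, RPL41B, RPL7A, RPL2B, RPL8A, RPL18B, RPL27A, RPL7B and RPL14B. Above it lay 6: RPP0, RPP1A, RPL20A, RPL10, RPL4A and RPL4B. Of these, RPP0, RPP1A and RPL20A had opposite signs on the slides. Over all gene probes above background the quartiles were -0.21 and 0.20, so the upper quartile of all genes also lay above the range, which ends at 0.03. The share of all genes outside the range was not counted, so the 18 are no measure of an excess. The SD of the gene means was 0.22 over all 81 and 0.16 without chromosome VI, against 0.09 over the blocks of the control.

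**Figure D4:**
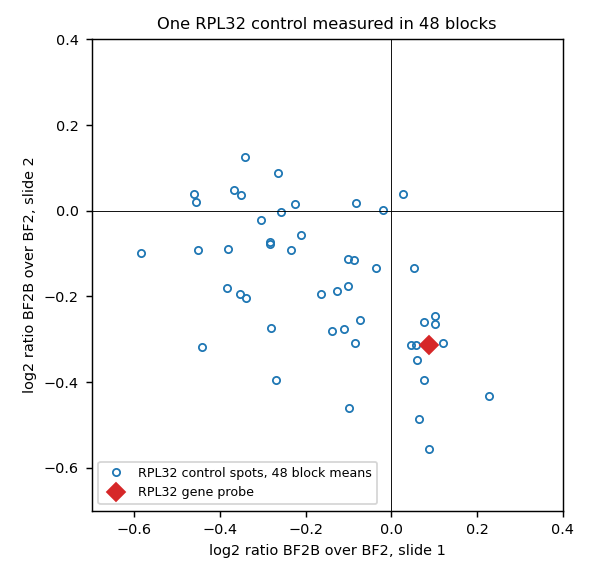
Log2 ratio of BF2B over BF2 of the RPL32 control in 48 blocks (circles, mean of 3 spots each) on slide 1 and slide 2, with the RPL32 gene probe as a diamond. The blocks spread from -0.59 to 0.23 on slide 1 and from -0.56 to 0.13 on slide 2, and blocks that are low on one slide tend to be high on the other.

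Genes that act on ribosomal protein genes or on their products had ratios near 0 in BF2B, apart from a few. Among 12 regulators, 11 were above background, with a median of 0.07. IFH1, the coactivator that switches on ribosomal protein genes, had log2 ratios of 0.95 and 0.85, a mean of 0.90 ± 0.07, just short of 2-fold higher. RAP1, which binds their promoters, stood at 0.46 ± 0.40. The 9 chaperones and importers of ribosomal proteins had a median of 0.14, with SQT1, the chaperone of Rpl10, at 0.26 and TSR4, a chaperone of a small-subunit protein, at 0.31 ± 0.34. The 17 factors of large-subunit maturation and export above background had a median of 0.07, from MTR2, an export factor, at -0.38 ± 0.39 to JJJ1, a late cytoplasmic factor, at 0.42 ± 0.23. In these 3 lists 0 genes were called in either direction, which for lists of this size is near the background of 1.37% higher and 1.61% lower. The medians were above that of all genes, while those of the ribosomal proteins were below it. All of these medians lay within the quartiles of all genes, -0.21 and 0.20, and an opposite movement of the lists was not tested.

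In the sample labelled BF2S against BF2, the large-subunit genes were spread far more widely, and the values depended on the correction of the slides. Of the 81 genes, 16 were called higher, 23 lower and 42 were not called. Over all 5290 gene probes above background, 19.3% were called higher and 25.1% lower, and the shares among the 81, 19.8% and 28.4%, were close to these. Its median was -0.29, beside 0.05 over all genes, and 43 genes were below 0 on both slides.

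Signals of the large-subunit genes in the BF2S channel were low compared with the blank spots. On slide 1, 10 of the 81 genes exceeded the blank median in that channel, and on slide 2 4 did. RPL19A, RPL28, RPL29 and RPL41B did so on both. In that channel 6 genes were not above local background on either slide, and 19 on 1 slide. In the BF2 channel, 80 genes exceeded the blank median on slide 1 and 81 on slide 2. Over the 81 genes, the signals of BF2S correlated with those of BF2B at 0.11 to 0.20, and the BF2 signals of the 2 slide sets correlated at 0.86 to 0.91. These are descriptions across genes.

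The calls of higher genes often went against the brightness itself. Of the 81 genes, 77 were dimmer in BF2S than in BF2 on both slides, among them 13 of the 16 called higher and 23 of the 23 called lower. RPL29 and RPL41B were the only genes brighter in BF2S on both slides. With each slide centred on its median in place of loess, the count was 1 higher and 67 lower, and the median was -2.14. Among genes that exceeded the 95th percentile of blank spots in at least 1 channel on both slides, 6.62% were called higher and 54.6% lower, beside 16 higher and 23 lower of the 80 large-subunit genes among them. Against these genes the large-subunit shares were not close, unlike against all gene probes above background. Directions in this comparison are therefore given together with the brightness.

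RPL29 stood apart here too, in the opposite direction. Its signals were 26954 and 22695 in BF2S, against 3885 and 3730 in BF2. The log2 ratios were 5.86 and 6.03, a mean of 5.95 ± 0.12, and the mean was 2.65 with median centring. It was the single gene called higher under both corrections. RPL41B had signals of 11028 and 15526 in BF2S, against 6107 and 10351 in BF2, and a log2 ratio of 4.10 ± 1.01, which was 0.72 with median centring.

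The other genes with the highest ratios were dimmer in BF2S on 1 or both slides. RPL28, the gene in which changes give resistance to cycloheximide, had signals of 11573 and 9333 in BF2S, against 9752 and 10909 in BF2, and a log2 ratio of 3.49 ± 0.08. RPL41A had signals of 9087 and 4187 in BF2S, against 12951 and 16193 in BF2, and a log2 ratio of 2.14 ± 0.81. RPL19A had signals of 6646 and 5693 in BF2S, against 20928 and 20207 in BF2, and a log2 ratio of 2.01 ± 0.28. With median centring RPL41A and RPL19A turned to -1.13 and -1.65, and RPL28 stood at 0.04.

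The lowest genes were not above background in BF2S on either slide, so only a bound can be given, from the lowest signal among genes above background or the gene's own signal, whichever is higher. RPL7A had signals of 249 and -372 in BF2S, against 9179 and 10176 in BF2. RPL7B had 628 and -247 in BF2S, against 17148 and 13019 in BF2. RPP0 had 681 and 144 in BF2S, against 11042 and 11388 in BF2, and RPL18B had 318 and -242 in BF2S, against 4254 and 5379 in BF2. All 4 genes were far dimmer in BF2S on both slides. With this floor RPL7B was at least 14.5-fold lower in BF2S, RPP0 at least 11.2-fold and RPL7A at least 10.1-fold. RPL18B was at least 4.88-fold lower and RPL33A at least 4.01-fold. These bounds hold for this floor and the settings used here only, and a higher floor would lower them. The blank medians in the BF2S channel, 6049 and 5325, were above the BF2S signals of all these genes, so the bounds are not firm limits on the fold. The fitted log2 ratios were smaller with scaling between slides, at -2.51 for RPL7B, -1.97 for RPP0, -2.65 for RPL7A and -1.92 for RPL18B, and without background subtraction, at -3.33, -2.85, -3.48 and -2.58 in the same order.

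Among the 35 pairs, both copies were called the same way in 7 in BF2S, among them RPL7, RPL26, RPL27, RPL37, RPL41 and RPL42, the copies were called in opposite directions in 2, and 1 copy was called in 13. By copy, 7 A copies were called higher and 11 lower, and 6 B copies higher and 7 lower, so many pairs had a called copy to begin with. Over all gene probes above background, 19.3% were called higher and 25.1% lower. How many pairs would be called alike at such rates was not worked out, so these counts are no measure of copies moving together. The opposite pairs were RPL23 and RPP1. RPL23A had a log2 ratio of -1.09 and RPL23B of 1.29, and RPP1A, not above background in BF2S on slide 2, had -2.68 and RPP1B 1.25. With median centring all 4 were below 0, RPL23A at -2.91, RPL23B at -1.15, RPP1A at -2.72 and RPP1B at -0.53. The signals of RPL23B were 4810 and 3929 in BF2S against 10100 and 10867 in BF2, and those of RPP1B were 4770 and 3828 in BF2S against 6618 and 6628 in BF2. Both of these copies were dimmer in BF2S on both slides. Chromosome VI had a median of -0.01 over 110 genes in BF2S.

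**Figure D5:**
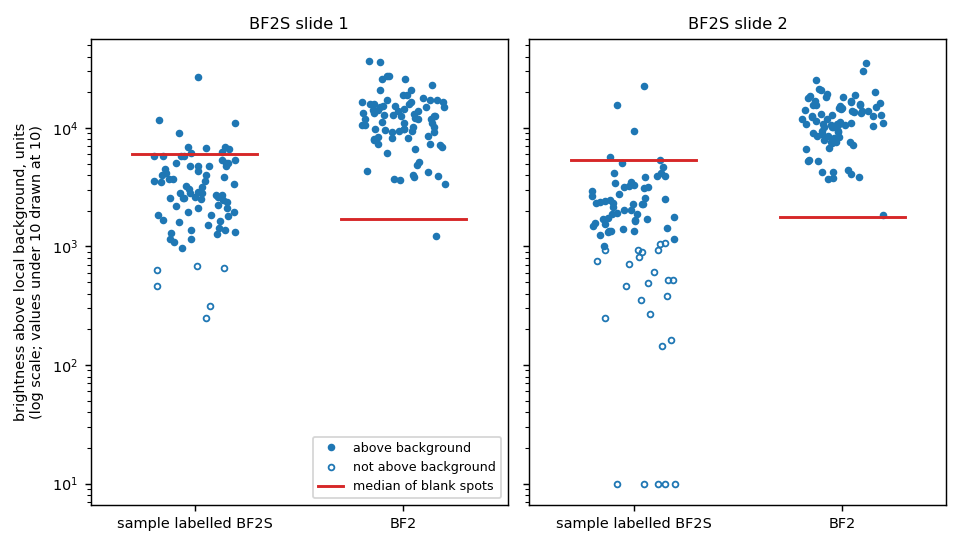
Brightness above local background (log scale) of the 81 large-subunit genes in the sample labelled BF2S and in BF2 on each slide, with open circles for genes not above background and values under 10 drawn at 10. Red lines mark the median of the blank spots. In the BF2S channel 10 genes on slide 1 and 4 on slide 2 lie above the line, against 80 and 81 in the BF2 channel.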

How the data were processed

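The series has 4 two-colour slides with RNA of 3 strains. Column-purified total RNA was amplified linearly and copied into Cy5- or Cy3-labelled cDNA, per the labels' protocols. The scanner files give spot and local background intensity in each dye, at 635 nm for Cy5 and at 532 nm for Cy3, per the file headers. The authors also deposited a table of log2 ratios. Its values matched log2 of strain over BF2 computed from the first spot of each probe without centring (correlations of at least 0.9998, 63.4% to 69.8% of values within 0.001, column medians of 0.20, -0.29, 0.23 and -0.80). The scanner, its software, the genome build and the labelled strand: not given in the sources used here.

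Spot medians were background-corrected by normexp (offset 50) and normalized by loess fitted to gene spots, with limma 3.58.1 in R 4.3.3. Each probe's 3 spots were averaged, and the dyes in the labels gave the direction, strain over BF2. Python 3.11.15 with numpy 2.4.6, pandas 2.3.3 and matplotlib 3.10.9 made tables and figures. Systematic names matched 5849 of 6388 gene probes to a RefSeq gene table, and the other 539 kept that name. A gene not above background on either slide has a bound in place of its fold. Signal over background limits precision: 77% and 44.9% of gene spots were above background in BF2B, against 42.8% and 74.9% in BF2. Simulated data had normally distributed technical noise only (6388 genes, BF2B against BF2), with changes placed in probes brighter than the median. The 2-fold threshold on both slides, without the background criterion, found 100% of changes of 2.5 in log2 and 92% of changes of 1.5. It gave 0 wrong calls among 6188 unchanged genes, but block and chromosome-wide shifts were not simulated. Both sizes exceed the mean ratio of every large-subunit gene in BF2B, so smaller changes were not covered.

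The genes and lists were chosen with earlier results of these data known. Both slides and both channels are given for called genes, the 8 highest and 8 lowest in BF2B, the pair apart, the 5 pairs with the largest and the 3 with the smallest differences, the stalk and chromosome VI, and for the 5 highest in BF2S. The 5 lowest in BF2S have signals and a bound, except 1 gene that is counted but not reported here. Of each other list up to 2 genes are named. RPL3, RPL11A, RPL18B on single slides, RPL19, RPL25, RPL27, RPL38 and, for BF2S, RPL23, RPL33A and RPP1 were added after their values were seen. In BF2B, ABF1, SDO1 and YVH1 were not above background, and EFL1 was not found under that name. Protein identity of the copies and promoter words, planned at first, were not analysed here. The alternatives tried changed the background correction, normalization, filters, thresholds and slides.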

Additional observations from a re-analysis of the deposited data

Results flagged for a closer look

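RPL29 moved in opposite directions in the 2 comparisons on every slide, which is why it is listed here. Its log2 ratio was 5.95 ± 0.12 in the sample labelled BF2S and -1.25 ± 0.33 in BF2B, each over BF2, a difference of 7.20. Between slides of the same dye orientation the difference was 7.34 and 7.05, and it was 3.91 with median centring in place of loess. The difference was not tested, and both comparisons share BF2. RPL29 was one of 4 large-subunit genes brighter than the blank median in the BF2S channel on both slides, and it lies on chromosome VI, whose median was -0.75 in BF2B and -0.01 in BF2S.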

How the results depend on the processing

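No paired analysis was possible because the results come from no test and each dye swap repeats 1 pair of samples. Single BF2B genes were recomputed for 29 of those named, and 21 of these kept their sign under every alternative that gave them a value. In BF2B, 0 large-subunit genes were called higher under the alternatives run, each slide alone included. The count lower was 0 without background subtraction, 3 with scaling between slides, 2 by the mean alone, 3 at 1.5-fold, 0 at 3-fold, 1 to 2 with either slide left out, and 0 without chromosome VI (chosen after seeing the data). The BF2B median was -0.31 with scaling and -0.29 in the deposited table. The pairs apart were 0 without background subtraction, with median centring, with both channels above background, without marked spots, at 2-fold and without pairs on chromosome VI. The median absolute A minus B difference was 0.17 with scaling and 0.12 to 0.16 with either slide left out.

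In BF2S, the count higher was 1 with median centring, 4 with scaling, 1 in the deposited table and 7 at 3-fold. The count lower was 15 without background subtraction, 67 with median centring, 14 with scaling, 60 in the deposited table and 2 with both channels above background, where dim genes leave the count by construction. The median was -0.14 without background subtraction, -2.14 with median centring, -0.16 with scaling, -2.33 in the deposited table, 0.33 with both channels above background and -0.47 to -0.32 with either slide left out. RPL19A turned to -1.65 with median centring and -1.79 in the deposited table, RPL41A to -1.13 and -1.30, and RPL28 to -0.027 in the deposited table. The causes were not tested.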
